A study of Homo sapiens with 24 samples.

Results

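miR-302a was compared with miR-372 and miR-373, which share its seed and differ from it over the rest of the mature sequence, to ask how far 3 miRNAs with the same seed left the same transcriptome. The comparison used 9 of the 24 RNA-seq libraries of the series, chosen by the miRNA named in their labels: 3 of miR-302a, 3 of miR-372 and 3 of miR-373, all from batch 2 of the labels. The cells were of the HEK293-derived line Flp-In T-REx 293, which carries a doxycycline-responsive repressor, and were transduced with a lentiviral vector in which a CMV promoter drives GFP and a hairpin lies in an intron ahead of it. The hairpins were built on an artificial backbone into which each mature miRNA was placed. Every group compared here, and the 3 libraries of cells with the vector lacking a hairpin (empty vector), was selected in 1 mg/mL Geneticin for 6 days and given 1 µg/mL doxycycline for 7 days. The cells were transduced and selected populations, and per the study's methods each of the 3 replicates came from its own transduction and was kept apart from then on.

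A miRNA guides Argonaute to mRNAs mainly through its seed, the stretch near the 5′ end that pairs with the 3′UTR of a target, and the target is then translated less and degraded faster. The base opposite the first position, the base after the seed and pairing further 3′ can add to the binding of a target. The family of these 3 miRNAs is abundant in embryonic stem cells, where it is known to repress inhibitors of the G1 to S transition and receptors of TGF-β signalling, and it is little expressed in differentiated cells.

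The mature sequences are shown because they set out what the 3 miRNAs share and where they part. They are RefSeq sequences (GRCh38.p14), with positions 2 to 8 in capitals.
miR-302a-3p: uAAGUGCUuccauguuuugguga
miR-372-3p: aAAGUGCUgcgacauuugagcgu
miR-373-3p: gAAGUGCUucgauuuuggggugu
These sequences lie at chr4:112648186-112648208 (minus strand), chr19:53787931-53787953 and chr19:53788748-53788770 (plus strand). Outside positions 2 to 8, miR-302a matched miR-372 at 7 of 16 positions and miR-373 at 10 of 16, and miR-372 matched miR-373 at 9 of 16. At position 9, miR-302a and miR-373 have U and miR-372 has G.

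The seed pairs with the 7 letters AGCACTT, and an 8mer site adds an A opposite position 1. The sites below lie in 3′UTRs of transcripts that the results turn on and are printed on GRCh37, 5′ to 3′ on the transcript strand, with the site in capitals. MBD2, TGFBR2, RELA and LATS2 are described targets of the family, and MAT2B and SDC1 were chosen after their values were seen.
MBD2 (chr18:51681392-51681415): aatctactggaaatgtAGCACTTA
MBD2 (chr18:51678854-51678877): ttcccgttacagccccAGCACTTA
TGFBR2 (chr3:30735498-30735521): tatatcaaaagtctcaAGCACTTA
RELA (chr11:65421783-65421806): attgaagccctccaaaAGCACTTA
LATS2 (chr13:21548740-21548763): agtacagtttagaaagAGCACTTA
LATS2 (chr13:21548640-21548663): tttgtattttatccatAGCACTTA
SDC1 (chr2:20402117-20402140): gggctcacacacctgtAGCACTTA
MAT2B (chr5:162945930-162945953): atagcagtttatggggAGCACTTg
The base before the capitals faces position 9. It is A in TGFBR2 and RELA, which pairs with miR-302a and miR-373, and C in the second MBD2 site, which pairs with miR-372. The MAT2B site lacks the final A and is a 7mer-m8 site.

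Reads assigned to exons numbered 13047400 to 35040778 in the 9 libraries, and miR-302a had 14194934, 18068386 and 13138727. The genes of the hairpins themselves (MIR302A, MIR372 and MIR373) had 0 reads in all 18 libraries of the batch, where a vector intron would not be counted, so these counts do not check the labels. They also do not give the level of each mature miRNA. A difference in miRNA level thus cannot be told apart from one in sequence. Among markers of HEK293 cells, VIM (949 to 1120 CPM, counts scaled to library size), KRT8, KRT18, GATA3 and PAX2 (8.86 to 13.9 CPM) were present, while NR0B1 stayed at or below 0.152 CPM. NEFL and LHX1 had no value, and not every other marker listed for the line is given here. Markers of blood, liver, muscle, fibroblasts and endothelium reached at most 2.00 CPM, except COL1A1 with 15.99 to 26.0 CPM, and their sum was 21.6 to 29.8 CPM with miR-302a and 21.6 to 32.7 CPM with the other miRNAs. Libraries of 1 group were not alike: miR-372 replicate 2 gave the most extreme value of the 9 libraries in 49.96% of genes (an equal share, counting highest and lowest, is 22.2%), and miR-302a replicate 2 had the next largest deviation from its group (SD 0.246 on the log2 scale, against 0.277 for miR-372 replicate 2 and 0.159 to 0.208 for the others).

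No gene passed the test between miR-302a and the mean of miR-372 and miR-373. The edgeR quasi-likelihood test, adjusted by Benjamini-Hochberg over 14054 genes, called 0 genes at 0.05, and the smallest adjusted p was 0.387. On the same counts, the Wald test of DESeq2 called 3 genes, the likelihood ratio test of edgeR 4 and limma voom with sample quality weights 4. At an unadjusted p under 0.05 in the quasi-likelihood test there were 161 genes (1.15% of those tested), 84 higher with miR-302a (0.598%) and 77 lower (0.548%). With no difference in any gene, a share of 0.05 is expected at that level, above the 1.15% found. The share found depended on the libraries and the test. It was 8.20% without miR-302a replicate 2 and 11.8% in limma voom, both above 0.05. The 3 miR-302a libraries lay all on 1 side of the other 6 for 103 genes (0.733%), 52 above (0.370%) and 51 below (0.363%). If every split of 3 against 6 libraries were equally likely, a share of 0.0238 would do so, which is also above the share found. The libraries are of bulk RNA, in which a change in fewer cells and less RNA per cell cannot be told apart.

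How large a difference could have been missed depended on the level of the gene. The 95% interval of the difference lay within 2-fold in both directions for 13472 genes (95.9%) and within 1.5-fold for 11847 (84.3%). Among the 12489 genes whose mean log2 CPM was 1 or more, 12465 (99.8%) lay within 2-fold and 11758 (94.1%) within 1.5-fold. The median half-width of the interval was 0.79 on the log2 scale below a mean log2 CPM of 0, 0.52 between 0 and 2, 0.30 between 2 and 4, and 0.16 between 6 and 8. The median absolute difference was 0.053. Below a log2 CPM of 0, 316 of 752 intervals lay within 2-fold, so for the rest a 2-fold difference could have been missed.

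**Figure D1:**
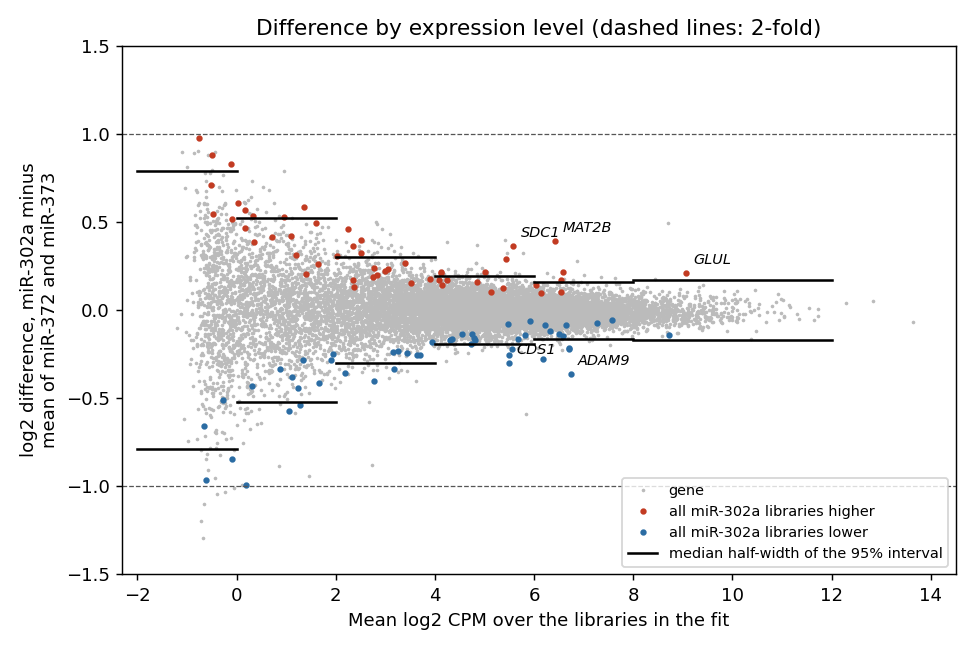
Difference between miR-302a and the mean of miR-372 and miR-373 (log2, vertical axis) against mean log2 CPM (horizontal axis) for each gene tested, with the median half-width of the 95% interval per level as black lines and the genes whose miR-302a libraries all lie on 1 side in colour. The half-width narrows from 0.79 at the lowest levels to 0.16 between log2 CPM 6 and 8; ENSG00000248636, at -5.88, lies outside the axis.

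Differences above 2-fold occurred in 7 genes, all with a mean log2 CPM under 1. Of the 12489 genes at or above that level, 5 differed by more than 1.5-fold, named here after their values were seen. FILIP1L, a filamin A-interacting protein, was 0.59 above on the log2 scale (95% interval 0.19 to 0.98), with its 3 miR-302a libraries above the other 6. MYOF, a membrane-repair ferlin, was at -0.59 (-1.13 to -0.04) with overlapping libraries. SEC61G, a subunit of the protein translocon, was at -0.59 (-1.29 to 0.10), and the intervals of AL161626.1 (-0.88) and AC079949.1 (-0.94) were wider still and included 0.

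The pairs gave the same count. Between miR-302a and miR-372 the quasi-likelihood test of edgeR called 0 genes, with 73 higher and 49 lower at an unadjusted p under 0.05 (0.519% and 0.349%, in all 0.868%). Between miR-302a and miR-373 it called 0, with 78 higher (0.555%) and 106 lower (0.754%) at that level, in all 184 (1.31%). Between miR-372 and miR-373, outside the main comparison, it called 0, with 51 higher (0.363%) and 105 lower (0.747%), in all 156 (1.11%). A single test for any difference among the 3 miRNAs called 0 genes, with 119 at an unadjusted p under 0.05 (0.847%), and its smallest adjusted p was 0.940. DESeq2 called 0, 3, 1 and 4 genes in these comparisons, in the same order. It used the Wald test for the pairs and a likelihood ratio test for any difference. The intervals lay within 2-fold for 93.6%, 93.7% and 94.4% of genes in the 3 pairs.

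The choice of libraries moved these counts. When miR-302a replicate 2 was left out, the number of genes at an unadjusted p under 0.05 was 1153 (8.20%), 586 higher and 567 lower, and 1 gene, ADAM9, was called. Without miR-372 replicate 2 it was 296, while leaving out any other library gave between 110 and 216 genes, and without miR-302a replicates 1 and 3 in turn it was 115 and 110. The voom fit gave weights of 0.268 to miR-302a replicate 2 and 0.252 to miR-372 replicate 2, against 0.521 to 3.58 for the other libraries, and had 1652 genes (11.8%) at an unadjusted p under 0.05. The slope of a library on gene length was 0.026 in miR-302a replicate 2 and -0.043 and -0.041 in replicates 1 and 3, and -0.099 in miR-372 replicate 2. With this slope as a covariate in edgeR's fit, 226 genes were at an unadjusted p under 0.05 and 1, MAT2B, was called. Between the groups, neither this slope nor the total count differed beyond the spread between libraries (exact two-sided permutation test over samples, p = 0.690 and 0.488, 3 against 6 libraries, smallest possible p 0.0238).

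**Figure D2:**
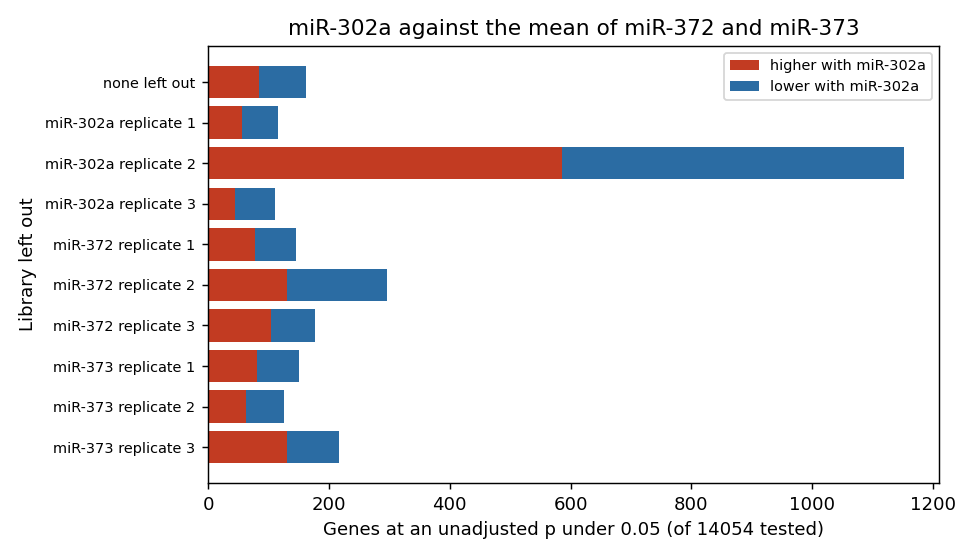
Number of genes at an unadjusted p under 0.05 between miR-302a and the mean of miR-372 and miR-373 (horizontal axis) with none or each 1 of the 9 libraries left out (vertical axis), split into genes higher and lower with miR-302a. The bar without miR-302a replicate 2 reaches 1153 genes, against 161 with all libraries.

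Of the genes with the smallest p and no overlap between groups, the 5 highest with miR-302a each held an 8mer or 7mer-m8 site. Among all tested genes with an annotated 3′UTR, 26.4% held one. All 5 fell against empty vector with miR-372 and miR-373, MAT2B, MBD2 and GLUL with miR-302a as well (edgeR adjusted p). The 5 were chosen for lower values with miR-372 and miR-373, so these falls are not independent of the choice. MAT2B (chr5:162930120-162946564), the regulatory subunit of methionine adenosyltransferase, was at 80.5, 84.7 and 81.6 CPM with miR-302a. It was at 64.4, 74.2 and 56.4 CPM with miR-372, at 65.3, 59.6 and 57.3 CPM with miR-373, and at 114, 101 and 105 CPM in empty vector cells. Each miR-302a library lay above every library of the other miRNAs and below every empty vector library. On the log2 scale it was 0.39 above the mean of the others (SE 0.077, 95% interval 0.23 to 0.55, unadjusted p = 5.8e-05 and adjusted p = 0.387 from edgeR). Against empty vector it fell by 0.37 with miR-302a, 0.72 with miR-372 and 0.81 with miR-373 (edgeR adjusted p = 0.014, 4.0e-05 and 1.2e-05). These 3 comparisons share the empty vector libraries.

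SDC1 (chr2:20400558-20425194), the cell surface proteoglycan syndecan-1, was at 54.9, 47.9 and 51.9 CPM with miR-302a, 42.8, 39.2 and 39.2 with miR-372, and 38.0, 39.8 and 41.4 with miR-373. The empty vector libraries, at 49.1, 61.2 and 55.6 CPM, overlapped those of miR-302a and lay above those of both other miRNAs. Its difference was 0.36 (0.20 to 0.52, edgeR adjusted p = 0.387), and against empty vector it was at -0.10 with miR-302a (adjusted p = 0.509) and fell by 0.45 with miR-372 and 0.47 with miR-373 (adjusted p = 0.0026 and 0.0032). MBD2 (chr18:51677976-51751039), which binds methylated CpG, was the most reduced of the 5. It was at 28.2, 27.4 and 29.2 CPM with miR-302a, 24.3, 24.2 and 21.7 with miR-372, 24.7, 21.6 and 22.6 with miR-373, and 59.4, 54.7 and 60.8 in empty vector cells. The miR-302a libraries lay above the other 6 by 0.29 (0.13 to 0.45, unadjusted p = 0.0011). Against empty vector the differences were larger, -1.05 with miR-302a, -1.32 with miR-372 and -1.35 with miR-373. DCAF12, a substrate receptor of a cullin ubiquitin ligase, was 0.22 above and GLUL, glutamine synthetase, 0.21 above.

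The 5 lowest with miR-302a, chosen by the same rule, held fewer shared-seed sites: ADAM9 and SSX2IP had 1 each, and CDS1, ELOVL7 and CDKN1A had none. Sites for the opposite (5p) arm of the natural hairpins also occurred among the highest and lowest genes. ADAM9 and SSX2IP had them for miR-302a-5p. MAT2B, GLUL, CDS1, SSX2IP, ELOVL7 and CDKN1A had them for miR-372-5p. MBD2, GLUL, SSX2IP, ELOVL7 and CDKN1A had them for miR-373-5p, and SDC1 and DCAF12 had no 5p site. The difference in sites between the 5 highest and the 5 lowest was not tested. ADAM9 (chr8:38854273-38962964), a membrane metalloprotease, was at 77.8, 93.5 and 77.6 CPM with miR-302a, 105, 104 and 103 with miR-372, 110, 116 and 103 with miR-373, and 127, 119 and 121.8 in empty vector cells. Here the miR-302a libraries stood below all others, and miR-302a replicate 2 was the nearest to them. The difference was -0.36 (-0.51 to -0.22, edgeR unadjusted p = 4.3e-05, adjusted p = 0.387), and -0.46 without that library. Against empty vector ADAM9 fell by 0.56 with miR-302a (adjusted p = 1.7e-04), and was at -0.24 with miR-372 and -0.16 with miR-373 (adjusted p = 0.055 and 0.30).

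CDS1 (chr4:85504280-85572487), which makes CDP-diacylglycerol for phospholipid synthesis, was at 34.6, 34.7 and 33.7 CPM with miR-302a, 42.2, 41.7 and 38.1 with miR-372, and 45.1, 44.2 and 42.6 with miR-373. Its miR-302a libraries lay close together and below the others, with empty vector at 46.4, 48.3 and 46.6 CPM. The difference was -0.30 (-0.43 to -0.17, edgeR adjusted p = 0.387) and stayed between -0.32 and -0.29 whichever library was left out. CDKN1A (chr6:36644237-36655114), a CDK inhibitor at the G1 to S transition, was at 58.9, 48.6 and 61.7 CPM with miR-302a and between 62.2 and 75.3 CPM in the other 6 libraries. Its lowest value was miR-302a replicate 2, and the difference of -0.28 (-0.45 to -0.10) was -0.18 without that library, where the unadjusted p was 0.054. SSX2IP, a centrosomal and junctional protein, was at -0.22 and ELOVL7, a fatty acid elongase, at -0.25.

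**Figure D3:**
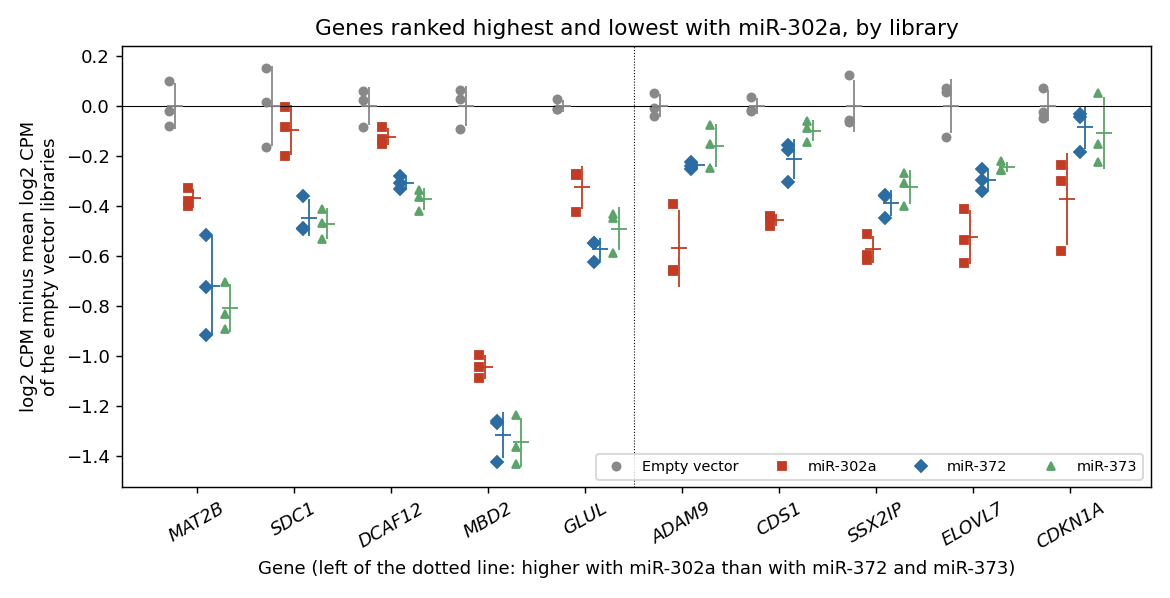
Level of the 5 highest and 5 lowest genes by the naming rule in each of the 9 miRNA libraries and each empty vector library, as log2 CPM minus the mean log2 CPM of the empty vector libraries (vertical axis), with points for libraries and bars for mean ± SD (n = 3). The miR-302a points of MAT2B and SDC1 lie above those of miR-372 and miR-373, and those of ADAM9 and CDS1 lie below.

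ADAM9 and MAT2B were each called in 5 of 23 alternative settings, and SDC1 and ENSG00000248636 in 3 each. MAT2B was called by the DESeq2 Wald test (adjusted p = 0.0219), the edgeR likelihood ratio test (0.0087), limma voom (0.0148) and both edgeR fits with the length slope as a covariate. Over those settings its difference was 0.37 to 0.39. ADAM9 was called by the same 3 tests (adjusted p = 0.0113, 0.0087 and 0.00041), by the edgeR fit with the slope and the replicate block and by the edgeR fit without miR-302a replicate 2 (0.0437). SDC1 was called by DESeq2, the likelihood ratio test and voom with adjusted p = 0.0472, 0.04997 and 0.0395, close to the threshold. DPYSL5, a neuronal dihydropyrimidinase-related protein, and PBK, a mitotic kinase, were called in 1 setting each, named after their values were seen.

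A long non-coding RNA without a symbol, ENSG00000248636 (chr12:119799052-120105884, minus strand, singled out after its values were seen), had 0 reads in all 3 miR-302a libraries. It had 10, 1 and 11 reads with miR-372, 7, 12 and 12 with miR-373, and between 1 and 13 in each of the 15 libraries of the batch outside miR-302a. Its mean over miR-372 and miR-373 was 0.442 CPM. This was 6.68 times the limit that a count of 0 allows with miR-302a (3 reads over the 45402047 of the group). The ratio leaves out the counting error of the 22 reads with miR-372 and the 31 with miR-373, so it is not a lower bound. Genes with 0 reads in all libraries of 1 group and a read in each of the other 15 libraries were 1 for miR-302a, 1 for miR-133a and 0 for the other 4 groups. The span of the gene overlaps that of another annotated on the same strand, so its count may not reflect this gene alone or in full. It was not called by the quasi-likelihood test of edgeR after the filter (adjusted p = 0.387), and was called by the likelihood ratio test of edgeR (adjusted p = 0.00050), by limma voom (8.7e-05) and by the quasi-likelihood test without a filter (0.0182).

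Described targets of the family showed no called difference between miR-302a and the others, with narrow intervals. Of the 24 listed genes found in the annotation, 22 were tested, and LEFTY1 and LEFTY2, inhibitors of Nodal signalling, did not pass the filter on low counts. Against empty vector, 12 of the 22 fell with each miRNA by edgeR's adjusted p, where 4.85%, 6.56% and 3.30% of all genes fell with miR-302a, miR-372 and miR-373. CDKN1A was among the 12 of miR-302a and not of the others (-0.08 and -0.10 with miR-372 and miR-373), and ZBTB7A, a transcriptional repressor, among those of miR-372 and miR-373 and not of miR-302a (-0.22, adjusted p = 0.052). In the direct test by edgeR 0 of the 22 were called, and 1 was higher (MBD2) and 1 lower (CDKN1A) at an unadjusted p under 0.05. Their median difference was -0.031, against -0.0054 over all genes tested. The interval lay within 1.5-fold for 21 of 22, the exception being DKK1, a Wnt inhibitor at 0.280 to 0.849 CPM in the 9 libraries (-0.27, -1.18 to 0.64).

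**Figure D4:**
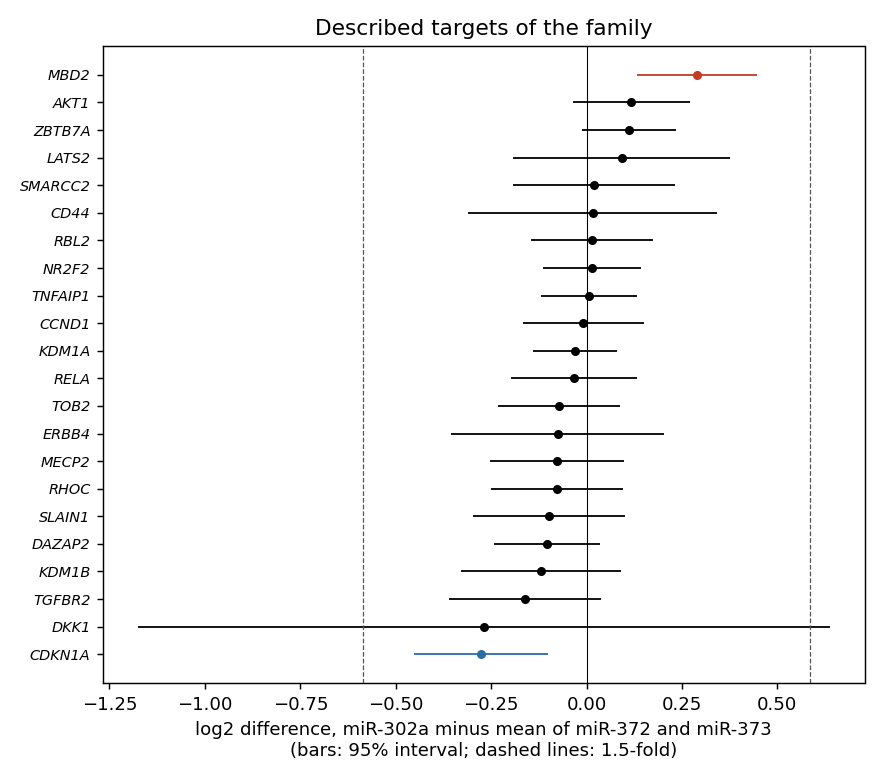
Difference between miR-302a and the mean of miR-372 and miR-373 (log2, horizontal axis) for the 22 described family targets tested (vertical axis), with points for the estimate, bars for the 95% interval and dashed lines at 1.5-fold. The intervals of 21 genes lie inside the dashed lines, and those of MBD2 and CDKN1A do not cross 0.

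TGFBR2, the type II receptor of TGF-β, was at 8.56, 7.67 and 9.15 CPM with miR-302a, 8.49, 8.38 and 10.0 with miR-372, 9.34, 10.4 and 9.76 with miR-373, and 18.2, 18.3 and 19.9 in empty vector cells. The miRNA libraries overlapped, and all lay far below empty vector. The difference was -0.16 (-0.36 to 0.04). LATS2, a kinase of the Hippo pathway, was at 9.33, 7.84 and 8.70 CPM with miR-302a, 6.67, 5.64 and 9.14 with miR-372, 7.49, 9.63 and 9.39 with miR-373, and 15.4, 15.2 and 15.9 in empty vector cells, a difference of 0.09 (-0.19 to 0.38). RELA, a subunit of NF-κB, was at 31.6, 31.4 and 31.3 CPM with miR-302a, between 28.8 and 29.8 with miR-372 and between 33.7 and 38.1 with miR-373. Its miR-302a libraries lay between those of the other miRNAs, so the mean of both cancelled in the comparison (-0.03, -0.20 to 0.13), while miR-372 was 0.27 below miR-373 (unadjusted p = 0.0065). CD44, the hyaluronan receptor, was at 0.02 and DAZAP2, a described family target, at -0.10, with intervals of -0.31 to 0.34 and -0.24 to 0.04.

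OAS3, SAMD9 and SERPINF1 were named because earlier results of these data showed them for all 3 miRNAs. OAS3, an interferon-induced oligoadenylate synthetase, was at 2.04, 2.24 and 2.14 CPM with miR-302a, 2.79, 2.27 and 2.71 with miR-372, and 2.78, 2.71 and 3.51 with miR-373. Its miR-302a libraries were below the other 6, all of them far under the 12.2 to 15.8 CPM of empty vector cells, and the difference was -0.40 (-0.79 to -0.01, unadjusted p = 0.043). SAMD9, an interferon-induced antiviral factor, was at -0.21 (-0.81 to 0.39), and ran from -0.40 without miR-302a replicate 1 to 0.08 without replicate 3. SERPINF1, a secreted serpin, was at -0.07 (-0.40 to 0.25), and ran from -0.25 without miR-302a replicate 3 to 0.14 without replicate 2.

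Genes with shared-seed sites in the 3′UTR were described over 13041 tested genes with an annotated 3′UTR, of which 562 (4.31%) had an 8mer and 3443 (26.4%) an 8mer or 7mer-m8 site. The 562 genes with an 8mer had a median difference of -0.010 between miR-302a and the others, although their medians against empty vector were -0.18, -0.20 and -0.13 with miR-302a, miR-372 and miR-373. Of these, 23.7%, 29.5% and 18.9% fell against empty vector with the respective miRNA. The 2881 genes with a 7mer-m8 and no 8mer had a median difference of -0.014, the 485 with only a 7mer-A1 -0.016, and the 9113 without a site -0.0037. Per library, the 8mer median relative to genes without a site was -0.042, 0.040 and -0.024 with miR-302a, -0.0011, -0.091 and 0.0051 with miR-372, and 0.032, 0.059 and 0.017 with miR-373, so the libraries of miR-302a and of miR-372 spread over more than the group means differed. Without miR-302a replicate 2 the median difference of the 8mer genes was -0.027 and without replicate 1 it was 0.0053.

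Sites were then divided by what distinguishes the miRNAs. The 656 genes whose sites face position 9 with an A, pairing with miR-302a and miR-373 and not miR-372, had a median difference of -0.014, and the 1799 whose sites face it with a C, pairing with miR-372, one of -0.012. Pairing at positions 13 to 16 with miR-302a alone, in 73 genes, went with a median of -0.029, with miR-372 alone, in 94 genes, with -0.028, and with miR-373 alone, in 123 genes, with -0.017. None of these genes was called by edgeR. Since miR-373 pairs at position 9 like miR-302a, the pair of miR-302a and miR-372 separates these lists better, and there the medians were 0.0072 for sites with an A and -0.0069 for sites with a C, against -0.0072 over all genes tested. Genes with a site for the natural 5p arm and none for the shared seed had medians of -0.015 for miR-302a-5p (843 genes), -0.019 for miR-372-5p (1257) and -0.014 for miR-373-5p (2052). The hairpins used an artificial backbone, and the strand opposite the mature miRNA was not examined here.

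The sites that face position 9 with a C were mostly of 1 kind. Among 5104 matches to AGCACTT in the 3′UTRs, 2802 faced position 9 with a C and 1014 with an A, and 1681 (32.9%) lay in the 12 letters CAGCACTTTGGG, part of the consensus of the Alu repeat and searched on the transcript strand. Genes whose 7mer-m8 sites all lay in these letters (790) had medians against empty vector of 0.0048, 0.0070 and 0.012 with miR-302a, miR-372 and miR-373. For the 1687 genes with 7mer-m8 sites outside them the medians were -0.082, -0.083 and -0.043. Between miR-302a and the others the medians were -0.0063 and -0.017. This division was made after the data were seen.

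Sites were counted in the genes whose groups did not overlap. Of the 44 genes above in all miR-302a libraries that had an annotated 3′UTR, 20 (45.5%) held an 8mer or 7mer-m8 site, and of the 48 below, 7 (14.6%), where 26.4% of all genes did. An 8mer was in 5 of 44 and 1 of 48, where 4.31% of all genes had one. These shares are a description of genes chosen by the comparison itself, and the difference between them was not tested. Of all 562 genes with an 8mer, 9 were higher and 2 lower at an unadjusted p under 0.05, where 0.598% and 0.548% of all genes were.

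Genes that all 3 miRNAs moved against empty vector were compared as well, although a call with each miRNA selects genes that moved alike. For the 387 genes lower with each miRNA the median difference between miR-302a and the others was -0.0028, with 94.1% of intervals within 1.5-fold, and for the 215 higher with each it was -0.0092, with 94.4%. Of all genes, 3.02%, 4.82% and 1.83% were higher with the 3 miRNAs in the same order. Between the pairs, the median of the 387 genes was 0.042 for miR-302a minus miR-372, -0.045 for miR-302a minus miR-373 and -0.087 for miR-372 minus miR-373, and that of the 215 was -0.037, 0.020 and 0.071. The 98 genes that were lower with each and held an 8mer had a median of 0.015, with 96 intervals within 1.5-fold. These 3 lists were made after the data were seen.

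Pathways downstream of the family showed no gene called between miR-302a and the others in edgeR's test. Of 25 regulators of G1, CDKN1A alone was at an unadjusted p under 0.05, and the median was -0.011. The 18 receptors and SMADs of TGF-β and BMP signalling had a median of -0.0036, and the interval of each lay within 1.5-fold. The 20 genes of the Hippo pathway had -0.038, with 19 within 1.5-fold. Among 33 tested of 45 interferon-response genes, the median was -0.010, and PARP10 (0.70), an ADP-ribosyltransferase, and OAS3 (-0.40) were at an unadjusted p under 0.05. These genes were bounded less tightly, with 20 of 33 intervals within 1.5-fold. The 17 epithelial, mesenchymal and pluripotency genes had -0.036, the 13 genes of the miRNA machinery -0.034, the 15 of cholesterol synthesis -0.027 and the 9 hypoxia genes 0.042. Among the hypoxia genes ANKRD37 (-0.64), an ankyrin repeat protein named after its value was seen, was lower at an unadjusted p under 0.05. Leaving out 1 library turned the sign of most of these medians: to 0.015 for cholesterol synthesis without miR-302a replicate 2, to -0.023 for hypoxia and 0.0063 for the miRNA machinery without miR-372 replicate 3, to 0.022 for G1 regulators and 0.0032 for Hippo without miR-302a replicate 1, to 0.020 for TGF-β and BMP without miR-372 replicate 3, and to 0.0051 for interferon without miR-372 replicate 2. The median of the epithelial, mesenchymal and pluripotency genes stayed between -0.057 and -0.022.

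**Figure D5:**
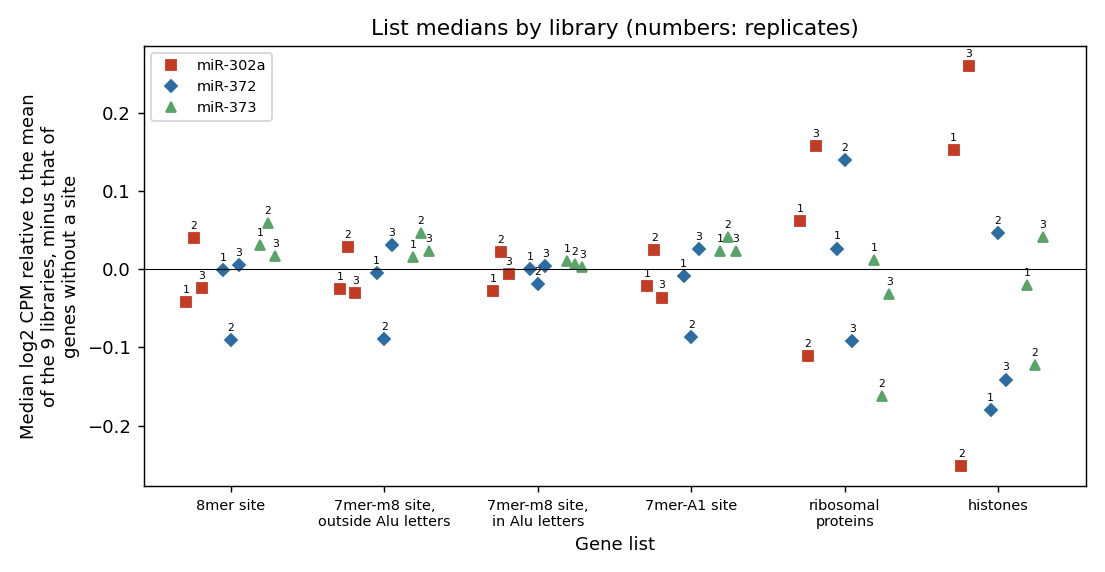
Median log2 CPM of gene lists relative to the mean of the 9 libraries, minus that of genes without a site (vertical axis), for site lists, ribosomal protein genes and histone genes (horizontal axis), 1 point per library with its replicate number. For the 8mer list the libraries of miR-302a run from -0.042 to 0.040 and miR-372 replicate 2 lies lowest at -0.091; for histone genes miR-302a replicate 2 lies at -0.25, below the other 8 libraries.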

How the data were processed

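RNA-seq was analysed for the 18 libraries of batch 2, grouped by their labels. After adapter trimming, the authors mapped reads to hg19 with TopHat2 2.1.1 and ran featureCounts by strand over exons, and they deposited the raw counts per gene. A feature length column, a value of no sample, served for the length slope. Tables of the authors' own fold changes and p-values against empty vector, by edgeR 3.24.3 per the labels, were not used.

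Counts were fitted in R 4.3.3 with edgeR 4.0.16: filterByExpr (minimum count 10, 14054 genes), TMM factors, a quasi-likelihood fit of all 6 groups with group as the factor, and a contrast of miR-302a with miR-372 and miR-373, each at a weight of 0.5. Benjamini-Hochberg adjustment covered all genes, with a threshold of 0.05. Differences are log2 values (prior count 0.125), SE is the absolute difference over the square root of F, and intervals are 95%. CPM used TMM-scaled library sizes, except for the cell type markers and ENSG00000248636, where CPM used total counts without TMM factors. The biological coefficient of variation was 0.0966, and chi-square per degree of freedom between replicates was 3.77 to 35.7, so no library was a copy of another. Lower depth widens the intervals, and the limit at a count of 0 (3 reads) covers counting error only.

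Identifiers matched GENCODE annotation of GRCh37 for 28543 of 29794 genes, and the longest 3′UTR per gene was searched for sites. Of 25 described targets, 1 was not matched. Named were the 5 highest and 5 lowest genes by p that had a symbol, no mean log2 CPM under 1 and no overlap between groups, besides called genes, described targets and 3 genes of earlier results. Members and lists were chosen with earlier results of these data known. Lists cover described targets, G1 regulators, TGF-β, Hippo, interferon, epithelial and pluripotency, miRNA machinery, stress, hypoxia, cholesterol, mitochondrial, ribosomal protein and histone genes.

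Same-numbered miR-302a and miR-372 libraries deviated together (correlations across genes of 0.227, 0.336 and 0.161), so these numbers may pair them. The main fit did not use this pairing, and the alternatives with a replicate block did. Alternatives were DESeq2 1.42.0, the likelihood ratio test of edgeR, limma 3.58.1 voom with quality weights, other size factors and filters, thinned counts, 9 libraries alone, the replicate block, the length slope as a covariate, pooling of the 6 libraries and leaving out each library. The functions were tested on simulated data. A marker gene of the cell line is not reported here.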

Additional observations from a re-analysis of the deposited data

How the results depend on the processing

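All 5 comparisons called 0 genes in the quasi-likelihood test of edgeR and kept that count with DESeq2 size factors, upper quartile factors, a filter on CPM (above 1 throughout), thinned counts, the 9 libraries alone and, for the main comparison, the 6 libraries pooled (0 called, 178 genes at an unadjusted p under 0.05). Calls are given as the main comparison, miR-302a against miR-372, miR-302a against miR-373, miR-372 against miR-373 and any difference. They were 3, 0, 3, 1 and 4 by DESeq2, by its Wald test and, for any difference, its likelihood ratio test. By the likelihood ratio test of edgeR they were 4, 1, 3, 1 and 4. They were 4, 3, 2, 0 and 2 by limma voom, and 1, 0, 1, 0 and 0 without a filter. With the length slope as a covariate they were 1, 0, 0, 1 and 0, and with the slope and the replicate block 4, 0, 4, 1 and 4. Leaving out each library gave 0 to 1 calls in the main comparison (1 without miR-302a replicate 2) and 0 in the others. The causes were not tested. Genes with an interval within 2-fold numbered 12941 to 13464 over the libraries left out and 14695 of 22466 without a filter. Of 149 alternative values of these summaries 127 stayed the same and 22 moved. Of 776 for named genes, 729 stayed the same, 16 passed the threshold that the main test missed, and 31, of genes not called, changed sign. No called result was lost or reversed, as none was called.

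With the replicate block 0 genes were called in the main comparison, over all 18 libraries (252 at an unadjusted p under 0.05, against 161 without it) and over the 9 alone (254, against 78). The correlation of same-numbered libraries was 0.0217, 0.575 and 0.386 between miR-302a and miR-373. It was 0.0557, 0.356 and 0.505 for miR-372 with miR-373. Of 9 libraries 6 correlated best with a library of their own number, so the pairing is only a hint from the data for each pair of miRNAs. Added to the fit without a covariate, the block changed no call. Added to the fit with the length slope, it brought the calls given above, among them ADAM9, DPYSL5 and PBK in the main comparison. Depth limits genes below a log2 CPM of 0, where the median interval spans 0.79 in each direction.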

Other observations

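Ribosomal protein genes, which encode the subunits of the ribosome, had a median difference of 0.050 between miR-302a and the mean of miR-372 and miR-373, and 67 of 79 were above 0, with none at an unadjusted p under 0.05. Per library, their median relative to genes without a site was 0.062, -0.11 and 0.16 with miR-302a, 0.027, 0.14 and -0.092 with miR-372, and 0.011, -0.16 and -0.032 with miR-373. The libraries of each miRNA thus lay on both sides of 0, and the median difference was -0.019 without miR-302a replicate 3 and 0.12 without miR-302a replicate 2. Replication-dependent histone genes, whose mRNAs mostly lack a poly(A) tail and of which 15 of 33 were tested, had a median of 0.16, with 13 of 15 above 0 and 1 higher at an unadjusted p under 0.05. Their medians were 0.15, -0.25 and 0.26 with miR-302a, -0.18, 0.046 and -0.14 with miR-372, and -0.019, -0.12 and 0.041 with miR-373, and the median difference ran from 0.12 to 0.29 over the libraries left out. Over 14054 genes, 6610 (47.0%) were above 0.

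The 8 mitochondrially encoded mRNAs tested had a median of 0.0081, which ran from -0.11 without miR-302a replicate 1 to 0.14 without miR-302a replicate 2. The 19 stress and immediate early genes had a median of 0.054, with 13 above 0 and none at an unadjusted p under 0.05.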
